A study of Mus musculus with 4 samples.

Results

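The miRNAs miR-221 and miR-222 were measured by 2 of the 700 mouse miRNA probes on the array, those named mmu-miR-221 and mmu-miR-222. The probes were chosen by exact name, and the opposite strands of the hairpins are not included. Both miRNAs were higher in proliferating than in lactogen-differentiated HC11 cells, miR-222 by 4.84-fold and miR-221 by 3.85-fold relative to the bulk of miRNA probes. HC11 is a mouse mammary epithelial cell line with stem-like properties, so every sample comes from a single line in culture. The 2 proliferating samples were grown with 10% FBS and epidermal growth factor and collected after 48 h. The 2 differentiated samples were held at 2% FBS without epidermal growth factor for 48 h before 72 h with the lactogenic hormones dexamethasone (100 nM) and ovine prolactin (1 µg/mL). Each array carried 1 sample of each stage. The proliferating sample was in Cy3 and the differentiated sample in Cy5 on array 1, and the dyes were swapped on array 2. The study compared these stages to find miRNAs that change as stem-like cells differentiate. Since no label states that replicates were grown as separate cultures, the p-values cover only the variation among these 4 samples, and that variation may be technical.

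As background, a miRNA guides Argonaute proteins to messenger RNAs through its seed, the bases near its 5′ end, and lowers the output of those messages. miR-221 and miR-222 come from neighbouring hairpins and share a seed. They are best known for holding down Cdkn1b, which encodes p27, an inhibitor of cyclin-dependent kinases that slows entry into S phase, and the related inhibitor Cdkn1c (p57). In human breast cancer cells they are also known to act on the estrogen receptor alpha message and to be abundant in basal-like lines. Messenger RNAs were not measured on this array.

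The target sequences in the deposited array tables show what the probes capture, with the seed, bases 2 to 8, in capitals. The third sequence belongs to miR-1928, the one other probe of the 700 whose target has that seed.
mmu-miR-221: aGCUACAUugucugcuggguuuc
mmu-miR-222: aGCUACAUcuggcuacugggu
mmu-miR-1928: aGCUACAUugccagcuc
The first 8 bases of the miR-221 and miR-222 targets are identical, and the targets are 6 edits apart (an edit is 1 base changed, added or removed). The miR-222 target has 21 bases, while the RefSeq mature form has 23. That form is shown because its last bases go past the array target.
mmu-miR-222-3p: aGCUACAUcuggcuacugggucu
The miR-221 target equals the RefSeq mature form in full. In RefSeq (GRCm38.p6) mature miR-221 lies at chrX:19146307-19146329 and mature miR-222 at chrX:19146901-19146923, both on the minus strand, each within the 3′ arm of its own miRNA gene. The hairpins are shown with the array target in capitals, because they place both miRNAs on the same arm.
Mir221: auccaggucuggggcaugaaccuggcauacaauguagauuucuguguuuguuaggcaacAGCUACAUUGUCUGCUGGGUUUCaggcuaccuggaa
Mir222: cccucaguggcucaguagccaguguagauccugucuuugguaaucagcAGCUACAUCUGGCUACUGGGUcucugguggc
The hairpins are 504 bases apart.

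The probe of miR-1928 was not detected in any of the 4 samples, so miR-221 and miR-222 were the only detected probes with this seed. After each other, the nearest targets were 8 edits away. At that distance from miR-221 were miR-1928 and miR-23a, and miR-23a, at -0.87 on the log2 scale, was not called (limma adjusted p = 0.0988). At that distance from miR-222 were 4 probes, among them miR-1928 and miR-2145, and miR-2145 had a log2 ratio of 0.65 (limma adjusted p = 0.0861). How far miR-221 and miR-222 bind each other's probe was not tested.

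Samples differed in sensitivity, with 138 to 203 of the 700 probes detected and empty spots that averaged 39.1 to 287.8 intensity units. A probe was detected where at least 3 of its 5 spots lay, after subtraction of the local background, over 3 SDs above the average empty spot. Among markers of mammary epithelium, 5 of 6 probes were detected in at least 1 sample, and miR-141 in none. Of markers of other cell types, fibroblast or mesenchyme had 3 of 6 detected, blood 1 of 6, muscle 1 of 4 and endothelium 0 of 2. Spots of a probe deviated from its mean together in same-numbered samples (r = 0.787 for both numbers over 860 spots). In other pairs of samples r was 0.127 to 0.171.

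miR-221 gave the following signals over local background, each a mean ± SD over 5 spots of 1 sample in intensity units. On array 1 it read 2531 ± 267 in the proliferating sample and 541 ± 84.5 in the differentiated sample. On array 2 it read 2426 ± 164 in the proliferating sample and 2019 ± 147 in the differentiated sample. The stages were far apart on array 1, while on array 2 the spots of the stages overlapped before normalization, with 1918 to 2255 in differentiated and 2234 to 2660 in proliferating cells. That overlap is between different spots, and at every single spot of array 2 the differentiated channel read lower.

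miR-222 showed the same order in both arrays. On array 1 its signal over background was 5709 ± 237 in proliferating and 1014 ± 77.8 in differentiated cells. On array 2 it was 3862 ± 170 in proliferating and 2754 ± 79.7 in differentiated cells. No differentiated spot of miR-222 reached the lowest proliferating spot of its array, the nearest being 2852 against 3644 on array 2. Each of the 5 spots of both probes was detected in each sample, and the mean signals were 12.9 to 432.7 times the detection margin of their sample. Within a spot the SD of brightness was 2.98% to 11.0% of the mean. The 5 spots of miR-221 were spread over the array, each with a spot of miR-222 in the next row of the same column.

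**Figure D1:**
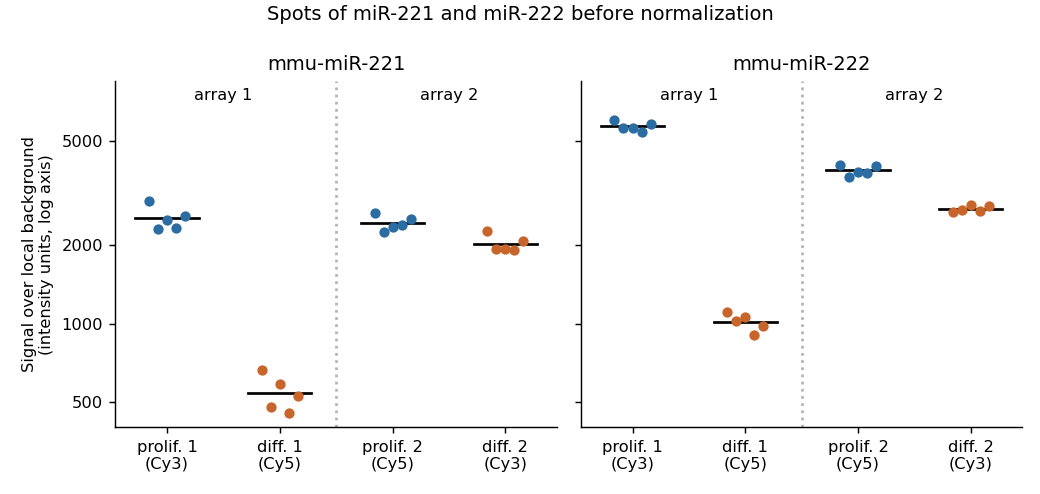
Signal over local background (intensity units, log axis) of the 5 spots of miR-221 and miR-222 in each of the 4 samples, before normalization; points are spots and lines are their means. Both miRNAs are lower in the differentiated sample on array 1 (541 against 2531 for miR-221), and the gap is narrower on array 2 (2019 against 2426), where the dyes are swapped.

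The channels of array 2 were not balanced. Over the 118 probes detected in all 4 samples, the median log2 ratio of differentiated over proliferating signal was -0.13 on array 1 and 1.45 on array 2. The differentiated channel of array 2 was thus 2.73-fold brighter at the median. Against that median miR-221 lay at -2.09 on array 1 and -1.71 on array 2. miR-222 lay at -2.36 and -1.94. On array 2, 7 of the other 117 probes had a lower unnormalized ratio than miR-221, and 6 a lower one than miR-222. On array 1 these numbers were 13 and 8.

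Ratios were normalized within each array by loess, a smooth curve of ratio against brightness fitted to the miRNA spots. The curve moved miR-221 by -0.08 on array 1 and by -1.44 on array 2, and miR-222 by -0.23 and -1.43, on the log2 scale. On array 2 most of the normalized difference of both miRNAs therefore comes from the correction for channel brightness. With 2 arrays, a probe's dye effect cannot be told apart from a difference between replicates.

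**Figure D2:**
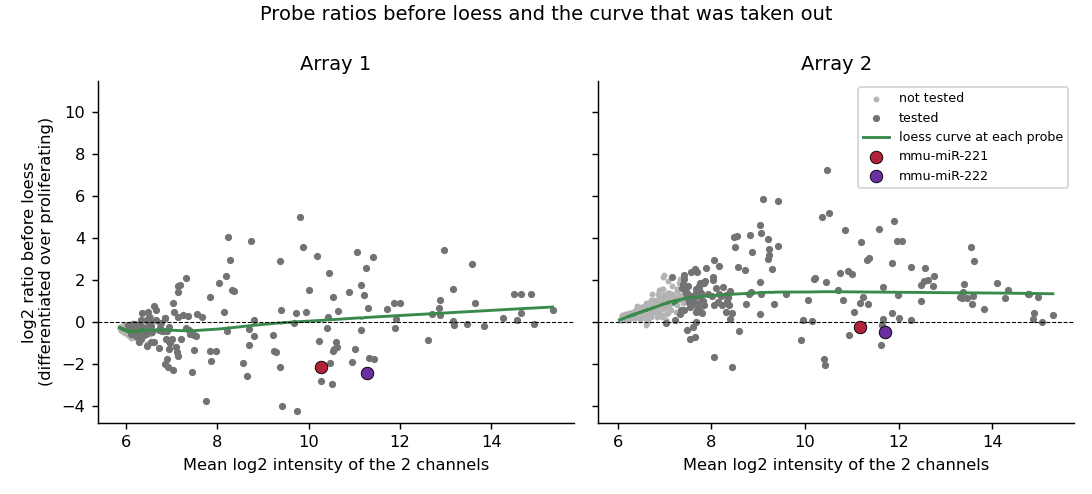
log2 ratio of differentiated over proliferating signal before loess (vertical axis) against mean log2 intensity (horizontal axis) for all 700 miRNA probes on each array; the line is the curve that loess removed. miR-221 and miR-222 lie below the curve on both arrays, although on array 2 they are near 0 on the vertical axis because the curve there runs above 1 at their brightness.

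After loess, the log2 ratio of miR-221 was -2.22 on array 1 and -1.68 on array 2. Its 5 spots ranged from -2.29 to -2.10 on array 1 and from -1.72 to -1.63 on array 2. For miR-222 the ratios were -2.66 and -1.89, with spots from -2.74 to -2.59 and from -1.996 to -1.82. The spots of 1 array agree far more closely than the arrays do, so the spread between arrays, not between spots, is the error used in the test.

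Both miRNAs fell. miR-222 had a mean log2 ratio of -2.28 ± 0.55 (SD, n = 2 arrays; limma adjusted p = 0.0201), with a 95% interval of 2.62 to 8.95 for its fold decrease. miR-221 had -1.95 ± 0.38 (SD, n = 2 arrays; limma adjusted p = 0.0197), with an interval of 2.31 to 6.42. Of the 172 probes tested, 23 were called lower (13.4%) and 29 higher (16.9%) at an adjusted p under 0.05, and both miRNAs are among the lower ones. They had the 7th and 9th lowest mean ratios of the 172, and the median over all tested probes was 0.11. The smallest p that an exact permutation test could give is 0.333 if the 2 samples a stage are taken as unpaired. For the 2 array ratios used here, an exact two-sided sign-flip test can give no p under 0.5. These calls therefore rest on the spread shared across probes. In extracts of whole cultures, fewer cells that hold a miRNA and less of it per cell cannot be told apart.

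The size of the fall depends on what is taken as the fixed point. Spike controls, RNAs that are not of the cell, had a mean log2 ratio of -1.37 on array 1 and -1.43 on array 2 over the 15 spike probes detected in all 4 samples. Single spike probes ranged from -2.87 to -0.02 on array 1 and from -1.86 to -1.14 on array 2. By their names, several of these probes are versions of the same spike. The 5 probes for 5S rRNA, a structural RNA of the ribosome, had -0.35 and -1.27. Centred on the spikes, all tested probes had a median of 1.51, against 0.11 in the reported values. miR-222 was then still called lower, at -0.88 (limma adjusted p = 0.00711), and miR-221 was not, at -0.55 (limma adjusted p = 0.0933). With that centring 4.65% of the tested probes were called lower and 80.2% higher. Centred on 5S rRNA, miR-222 was at -1.47 (limma adjusted p = 0.0612) and miR-221 at -1.14 (limma adjusted p = 0.155), and neither passed, where 2.91% of the tested probes were called lower. With either centring both miRNAs had the same standard error, 0.31 for spikes and 0.62 for 5S rRNA. In the reported fit miR-221 had 0.23 and miR-222 had 0.28. Under these centrings eBayes pooled the spread over all probes, so the p-values and shares cannot be set against those of the reported fit. Both miRNAs stayed below 0 under both centrings, and no source used here gives the amount of spike RNA added.

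**Figure D3:**
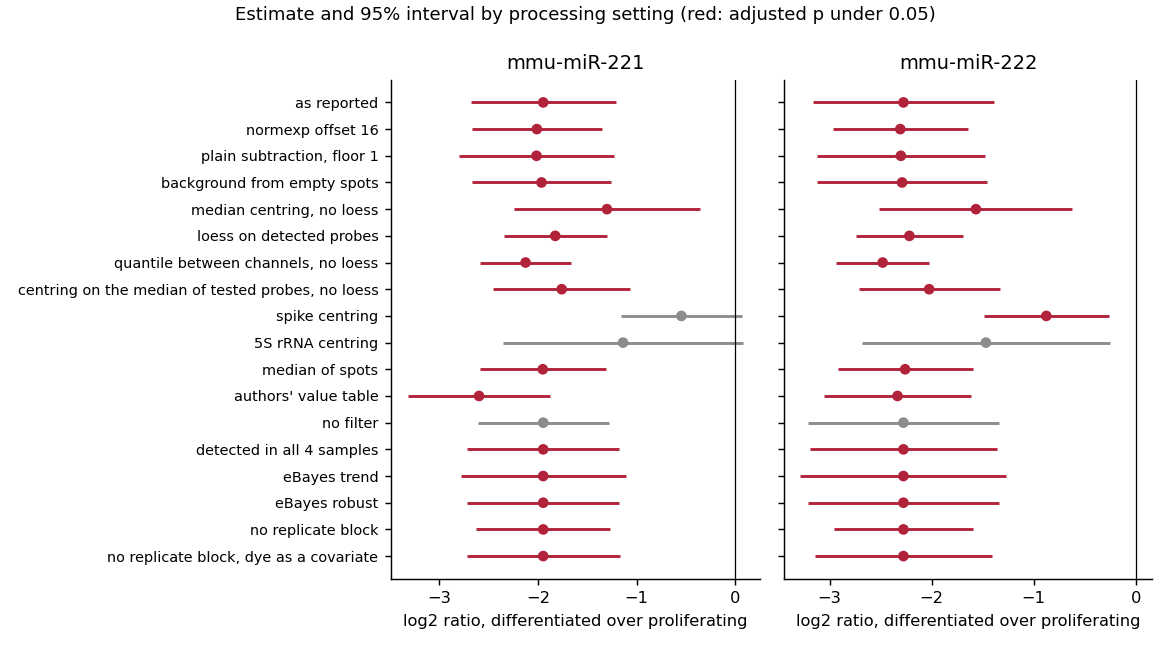
log2 ratio of differentiated over proliferating cells (horizontal axis) with its 95% interval for miR-221 and miR-222 under each processing setting; red marks a limma adjusted p under 0.05. All estimates are below 0, from -2.60 to -0.55 for miR-221 and from -2.48 to -0.88 for miR-222, and the smallest falls are those centred on the spikes.

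Some cell type markers moved beside the pair. Over all tested probes 16.9% were called higher and 13.4% lower, and the marker lists are too short to be read against these shares. Of 5 tested markers of mammary epithelium 3 rose, miR-200a (3.65), miR-200b (2.67) and miR-429 (1.43). miR-205 (0.20; limma adjusted p = 0.609) and miR-200c, undetected in proliferating samples (limma adjusted p = 0.146), were not called. With spike centring all 5 were called higher, where 80.2% of all tested probes were. The summed normalized signal of all 6 was 7049 to 8651 in proliferating and 21201 to 22486 in differentiated samples. Of 3 tested markers of fibroblast or mesenchyme miR-143 rose, by at least 1.51-fold (limma adjusted p = 0.0474), and the sum of all 6 was 1397 to 1427 in proliferating and 1261 to 2377 in differentiated samples. miR-199a-3p, miR-199a-5p and miR-214 of that list were not detected in any sample. Its other tested members, miR-145, undetected in proliferating samples (limma adjusted p = 0.0564), and miR-140 (0.17; limma adjusted p = 0.792), were not called. All 3 tested members were called higher with spike centring. miR-206, the 1 tested marker of muscle, fell (-1.02; limma adjusted p = 0.0483), and was at 0.38 when centred on the spikes. Only 1 of the 2 differentiated samples detected miR-206. The sum of the 4 muscle markers was 443 to 444 in proliferating and 340 to 354 in differentiated samples, with miR-1, miR-133a and miR-133b undetected. No blood or endothelial marker was tested. The sums include the background offset of 50 per probe. The part of these shifts in the fall of miR-221 and miR-222 was not tested.

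The authors' deposited table of processed intensities was read beside the values made here. Its values for miR-221 were 3845 and 4132 in the proliferating samples and 644 and 673 in the differentiated samples. For miR-222 they were 7389 and 5404 in the proliferating samples and 1402 and 1119 in the differentiated samples. The stages did not overlap for either miRNA. Within arrays 1 and 2 these values were 5.97-fold and 6.14-fold lower in differentiated cells for miR-221 and 5.27-fold and 4.83-fold lower for miR-222. In a fit of the same design on that table, 32.6% of the 172 probes were called lower, both miRNAs included. There eBayes pooled the spread over all probes, and both miRNAs had a standard error of 0.37. That share therefore cannot be set against the share of the reported fit. How the authors scaled and centred the table is not known.

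Whether one of the pair fell more than the other was not settled. The log2 ratio of miR-222 lay below that of miR-221 by 0.45 on array 1 and by 0.21 on array 2, a mean difference of -0.33 ± 0.16 (SD, n = 2 arrays). In the authors' table the order was the opposite, with a mean difference of 0.26. It moved with single samples, to -0.013 without proliferating replicate 1, -0.13 without differentiated replicate 2, -0.53 without differentiated replicate 1 and -0.65 without proliferating replicate 2. An exact two-sided sign-flip test over the 2 arrays gave p = 0.5, the smallest it can give.

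Probes with the pattern most like that of each miRNA were sought by the Euclidean distance between normalized log2 values over the 4 samples, each probe centred on its own mean. The search covered the other 171 tested probes. Nearest to miR-221 were miR-19b (distance 0.22), miR-106b and miR-25 (0.32 each), miR-1937b (0.35) and miR-1937a (0.37), where the median distance was 2.14. miR-19b is made from both the miR-17-92 and the miR-106a-363 cluster, which its probe cannot tell apart. miR-106b and miR-25 are made from a paralogous cluster within an intron of Mcm7. miR-1937a and miR-1937b are entries related to tRNA sequence. miR-19b had log2 ratios of -1.97 and -1.79 on the arrays, beside -2.22 and -1.68 for miR-221.

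Nearest to miR-222 was miR-93 (distance 0.32), a neighbour of miR-106b and miR-25 in the Mcm7 intron, with log2 ratios of -3.09 and -2.05 beside -2.66 and -1.89. miR-106b (0.58), miR-18a (0.61), miR-221 (0.62) and miR-19b (0.64) followed, and the median distance was 2.49. miR-221 was thus 4th in order of likeness to miR-222, and miR-222 was not among the 5 nearest to miR-221. miR-18a was not detected in either differentiated sample, so its fall is a bound of at least 2.87-fold. These distances describe 4 samples on 2 arrays and carry no test.

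**Figure D4:**
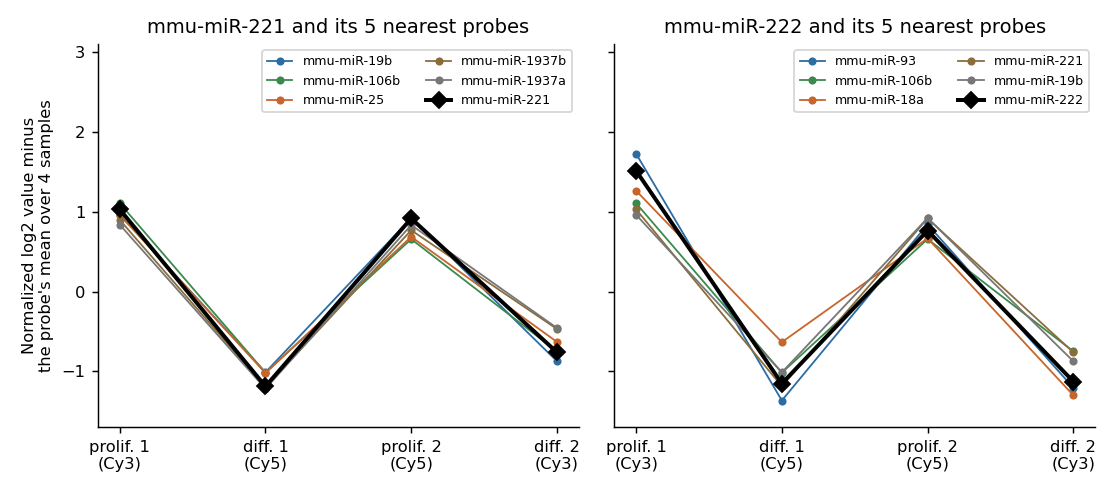
Normalized log2 values over the 4 samples, each probe centred on its own mean (vertical axis), for miR-221 and miR-222 in black and the 5 probes nearest to each in colour. All plotted probes are high in both proliferating samples and low in both differentiated samples, and miR-19b follows miR-221 at a distance of 0.22.

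Of 6 other miRNAs on the array that are reported to act on p27, 4 were tested, and 2 rose and 0 fell, with a median log2 ratio of 0.77. Of all tested probes 16.9% were called higher and 13.4% lower, and a list of 4 is too short to be read against these shares. Centred on the spikes, 4 were called higher, where 80.2% of all tested probes were. The median was then 2.17, beside 1.51 for all tested probes. miR-148a, abundant in milk, rose (3.27 ± 0.16; limma adjusted p = 0.00873). miR-152, which has the same seed as miR-148a, also rose (limma adjusted p = 0.0278), and since no proliferating sample detected it, its rise is a bound of at least 2.12-fold. miR-24 had a value of -0.73 ± 0.02 (limma adjusted p = 0.0686) and miR-181a of 0.28 ± 0.50 (limma adjusted p = 0.46), each as mean ± SD over 2 arrays. The reports on p27 come mostly from human cells.

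All 8 miRNAs on the list of those reported to act on the other Cip/Kip inhibitors, p21 and p57, were tested, and 8 fell, where 13.4% of all tested probes did. Their median log2 ratio was -2.44, beside 0.11 for all tested probes. On this list miR-25, miR-93 and miR-106b share a cluster, as do miR-106a and miR-20b, and also miR-17 and miR-20a. The 8 are therefore not separate observations, and how far they bind each other's probes was not tested. Neither miR-106a nor miR-20b was detected in a differentiated sample, so their falls are bounds. miR-25, the brightest, was at -1.65 ± 0.47 (limma adjusted p = 0.0305), next to -1.95 for miR-221. miR-93 was at -2.57 ± 0.74 (limma adjusted p = 0.0241), next to -2.28 for miR-222. miR-17 at -3.87 ± 0.54 and miR-20a at -3.59 ± 0.53 lay lower than either of the pair. Centred on the spikes, 6 of the 8 were still called lower, where 4.65% of all tested probes were. The median was then -1.04, beside 1.51 for all tested probes. This list was drawn up with earlier results for the same samples known, so its direction is no independent evidence.

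miRNAs that restrain the cell cycle went both ways, with 1 of 5 tested members higher, 1 lower and a median of 0.17. These counts are near the 16.9% and 13.4% of all tested probes. miR-15b fell (-1.50 ± 0.12; limma adjusted p = 0.0197), miR-16 had a value of -0.57 ± 0.06 (limma adjusted p = 0.108) and miR-34a, which p53 induces, of 0.17 ± 0.48 (limma adjusted p = 0.644). The member that rose, named after its value was seen, was miR-195 (1.89 ± 0.08; limma adjusted p = 0.0141). Centred on the spikes, 4 of the 5 were called higher and 0 lower, near the 80.2% and 4.65% of all tested probes. The median was then 1.57, beside 1.51 for all tested probes, and miR-15b was at -0.10 (limma adjusted p = 0.761). Of 4 tested growth-factor-responsive miRNAs, 1 rose and 0 fell, with a median of -0.08. In human cells miR-221 and miR-222 also belong to this class. A list of 4 is too short to be read against the shares of all tested probes. Centred on the spikes, 4 were called higher and 0 lower, where 80.2% and 4.65% of all tested probes were. The median was then 1.32, beside 1.51 for all tested probes. miR-21 was the one that rose (2.59 ± 0.57; limma adjusted p = 0.0164). miR-31 had a value of -0.43 ± 0.26 (limma adjusted p = 0.204), miR-155 of -0.21 ± 0.15 (limma adjusted p = 0.446) and miR-132 of 0.05 ± 0.10 (limma adjusted p = 0.848).

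The array also held 77 other probes whose target lies in exactly 1 miRNA gene of RefSeq and that gene on the X chromosome. At least 1 sample detected 16 of them, and 13 were tested. Of these, 2 fell, 1 rose and 10 were not called, with a median of -0.54. The share of lower calls among them, 15.4%, is near the 13.4% of all tested probes. Centred on the spikes, 9 of the 13 were called higher and 2 lower, where 80.2% and 4.65% of all tested probes were. The median was then 0.86, beside 1.51 for all tested probes. miR-361, the brightest, had a value of 0.45 ± 0.03 (limma adjusted p = 0.152) and miR-2137 rose (1.89 ± 0.23; limma adjusted p = 0.0151). The 2 that fell were miR-106a, at least 8.52-fold lower, and miR-20b, at least 3.65-fold lower and named after its value was seen, neither of them detected in a differentiated sample. Both belong to the miR-106a-363 cluster, and both are on the p21 and p57 list as well.

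**Figure D5:**
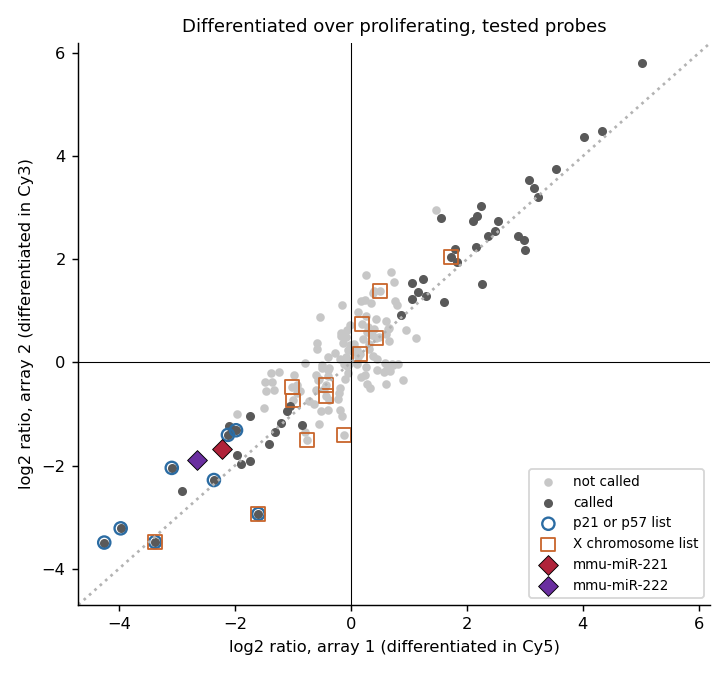
Loess-normalized log2 ratio of differentiated over proliferating cells on array 2 (vertical axis) against array 1 (horizontal axis) for the 172 tested probes, with the dotted line marking equal ratios. miR-221 (-2.22, -1.68) and miR-222 (-2.66, -1.89) lie at the lower left among the 8 members of the p21 and p57 list, while 10 of the 13 tested X chromosome probes were not called.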

How the data were processed

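The deposited scanner tables hold, per the file headers, spot intensity as a mean with its SD, 1 dye channel per sample, with background included. Per the labels' protocols, small RNAs were tailed with poly(A) and joined to a tag for Cy3 or Cy5 staining. No source used here names the image software. The authors' value table holds processed intensity, and every column tracked its own sample more closely than any other sample (r of 0.985 to 0.997 across tested probes). The local background was the 20th percentile of spots within 7 rows and columns. It was corrected with normexp (offset 50) in limma 3.58.1 under R 4.3.3, followed by loess (span 0.3, control spots at weight 0) and averaging of the 5 spots. A probe was tested if both samples of a stage detected it, by lmFit and eBayes on the 2 array ratios, two-sided, with Benjamini-Hochberg adjustment over all 172. In the reported fit each probe had 1 residual degree of freedom, to which eBayes added 2.08. Under several alternatives, among them spike centring, 5S rRNA centring and the authors' value table, eBayes used a single pooled spread for all probes. Replicate numbers were taken as shared arrays, from the 2-colour dye-swap design and the opposite dyes in the labels. Deviations of same-numbered samples from their stage means had r = 0.338 across probes. Level plots and distances used single channels after Aquantile. A probe undetected in a stage was given a bound there, from the lowest signal among detected probes. Fits on the value table added a pseudocount of 1. Control probes were counted as detected on 3 in 5 of their spots.

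The number of arrays, 2, limits the precision. The members and lists were chosen with earlier results of these data known. Named probes were the 2 miRNAs, the 5 nearest in pattern to each, those of shared seed or nearest sequence, and up to 4 tested members of a list from the brightest. Lists were matched by probe name, and X chromosome probes by finding the target in the hairpin of exactly 1 RefSeq gene, which held for 508 of 700 probes. The steps were also run on simulated arrays with rises and falls of matched size. Those arrays held neither the channel imbalance of array 2 nor a shift of the spikes. The run therefore cannot show how the steps handle these. The alternatives covered background, normalization, centring, filters, spot summary, the array block, dye, the value table, eBayes options and left-out samples.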

Additional observations from a re-analysis of the deposited data

How the results depend on the processing

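Both miRNAs were below 0 in every alternative run. miR-221 missed the threshold with spike centring (-0.55, adjusted p = 0.0933), 5S rRNA centring (-1.14, adjusted p = 0.155) and no filter on dim probes (-1.95, adjusted p = 0.0727). miR-222 missed it with 5S rRNA centring (-1.47, adjusted p = 0.0612) and no filter (-2.28, adjusted p = 0.0898). With no filter the same ratios are adjusted over 700 probes, so the direction there is fixed by construction, as it is with eBayes options, no replicate block and dye as a covariate. Centring on the median of tested probes was chosen after seeing the data and gave -1.76 and -2.02. Without the replicate block both were called (adjusted p = 2.7e-07 and 2.24e-09), and 38 probes rose and 33 fell. That fit takes the samples as independent although they share arrays. Its standard errors, 0.343 and 0.345, came mostly from the spread over all probes. These p-values are therefore no firmer evidence than those of the reported fit. Leaving out samples or arrays gave -2.22 to -1.68 for miR-221, -2.66 to -1.89 for miR-222 and -0.65 to -0.013 for their difference, which was 0.26 in the authors' table. For the difference, leaving out samples was added after seeing the data and gave -0.013 and -0.65 without proliferating replicates 1 and 2, and -0.53 and -0.13 without differentiated replicates 1 and 2. Leaving out arrays gave -0.45 to -0.21. A single array gives a value with no test, and a stage left with 1 sample borrows the spread of the other stage.

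The counts of 29 higher and 23 lower became 46 and 43 for offset 16, 48 and 37 for plain subtraction, 47 and 13 when centred on the median of all probes, 49 and 45 when loess used detected probes alone, 50 and 58 after quantile normalization, 138 and 8 with spike centring, 42 and 5 with 5S rRNA centring, 48 and 56 with the authors' table, 21 and 13 with no filter, 18 and 17 where all 4 samples detected the probe, 6 and 1 at an adjusted p under 0.01, and 21 to 35 and 19 to 31 without single samples. Filters alter the number of tests by construction, and several settings also pooled the spread over all probes. What part this had in the counts was not tested, nor was any other cause.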
